A study of Mus musculus with 8 samples.

Results

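The genes described are 39 interferon-stimulated and antigen presentation genes, taken by symbol, in soleus muscle of Ts65Dn and wild-type (WT) mice. A gene was measured where a probe set of the array was annotated to its symbol alone, and for a gene with several the brightest on average over all 8 arrays was taken. This gave 36 of the 39 genes, among 19938 genes measured in all. Isg15, Gbp2 and Ifi44 were not analysed here, because no probe set was annotated to their symbol alone. The members were chosen by symbol and by no cut on their values on these arrays, though earlier results of these data were known.

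The soleus, a slow-twitch muscle of the calf, was taken in the basal state from 4 male Ts65Dn mice and 4 male wild-type colony controls of strain B6EiC3SnF1/J, a mix of B6 and C3H background, all aged 5 months, with 1 array per mouse. Ts65Dn is a mouse model of Down syndrome that carries, as an extra marker chromosome present in every cell type, the distal end of mouse chromosome 16 joined to the centromeric end of chromosome 17. Genes of those segments are therefore present in 3 copies, and they include Mx1 and Mx2 among the members and the receptor chains Ifnar1, Ifnar2, Ifngr2 and Il10rb. The chromosome 17 part does not correspond to the human chromosome that is trisomic in Down syndrome, which limits the model. Values are on the log2 scale of RMA, from Affymetrix Mouse Gene 1.0 ST arrays, a difference of 1 is 2-fold, and every difference is Ts65Dn minus WT.

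Type I interferons bind the receptor chains Ifnar1 and Ifnar2, and interferon gamma binds Ifngr1 and Ifngr2. The receptors activate Janus kinases, which phosphorylate Stat proteins. A complex that holds Stat2 and Irf9 binds the interferon-stimulated response element (ISRE) in the promoters of target genes, and signalling by interferon gamma acts through the gamma-activated site (GAS). The targets block viral entry, replication and translation, sense foreign nucleic acids and load peptides on class I molecules. Without infection or inflammation a low tonic level of interferon signalling keeps these genes at a low but detectable level in most tissues, and in skeletal muscle they are known for their rise in inflammatory myopathy.

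Promoter sequences are shown for 8 of the members whose values are discussed, because each holds the core of the ISRE. RefSeq promoter windows of assembly GRCm38.p6, which run from 250 bases before to 50 bases after the annotated start, were available for 32 of the 39 members. Both strands were searched for GAAANNGAAA (TTTCNNTTTC on the other strand), the core of the ISRE, and for TTCNNNGAA, the core of the GAS. Each line gives 5′ to 3′ on the strand of the gene the match, in capitals, with up to 10 bases on each side, and adjoining matches that overlap were joined.

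B2m: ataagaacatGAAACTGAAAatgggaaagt

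Eif2ak2: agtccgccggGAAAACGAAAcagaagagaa

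Stat2: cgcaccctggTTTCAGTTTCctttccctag

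Bst2: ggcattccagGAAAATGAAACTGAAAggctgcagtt

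Oas1a: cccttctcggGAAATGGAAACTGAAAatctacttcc

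Irf2: tggggaagtGAAAATGAAAttgacttttc

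Ifit3: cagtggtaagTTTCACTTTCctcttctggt

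Rsad2: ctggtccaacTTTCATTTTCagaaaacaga

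On GRCm38.p6 these lie at chr2:122147538-122147567 (plus strand) for B2m, chr17:78882535-78882564 (minus strand) for Eif2ak2, chr10:128270266-128270295 (plus strand) for Stat2 and chr8:71537577-71537612 (minus strand) for Bst2. The others lie at chr5:120907520-120907555 (minus strand) for Oas1a, chr8:46739495-46739523 (plus strand) for Irf2, chr19:34583363-34583392 (plus strand) for Ifit3 and chr12:26456553-26456582 (minus strand) for Rsad2. The match of Eif2ak2 starts 18 bases after the start site, and the other 7 start before it, from 20 bases before in Oas1a to 241 bases before in Irf2. Ifit3 holds another match 122 bases before its start. The ISRE core was found in the windows of 17 of the 32 members (53.1%) and of 3.99% of all 27025 genes with windows of that length. The GAS core was found in the windows of 9 members (28.1%) and of 9.55% of all genes, and in Bst2 and Ifitm3 a match of one core overlaps a match of the other. Tap1, the member that passed the test below, has no match to either core in its window. A match is a run of letters and was not tested for binding, and Oas2, Mx1, Mx2, Usp18, Dhx58, Tap2 and Parp14 had no window in the table.

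The arrays differed between the groups as a whole, which touches each value that follows. The array median lay between 4.23 and 4.29 in Ts65Dn and between 4.37 and 4.56 in WT, and the interquartile range between 3.01 and 3.12 and between 2.62 and 2.93. WT arrays 2 and 3 had the narrowest ranges, 2.74 and 2.62. The median difference over all genes was -0.10, with -0.21 among the genes at or below the median brightness of 4.72 and 0.11 among brighter genes. A level-matched value is therefore given as well, from which the median deviation of the 100 genes nearest in mean brightness was subtracted in each array. Markers of slow muscle were bright and did not pass limma's test in either direction (0 of 8, also at an unadjusted p under 0.05), and their mean was 11.52 to 11.66 in Ts65Dn arrays and 11.49 to 11.56 in WT arrays.

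The comparison asks whether the extra dose of interferon receptor genes comes with higher levels of interferon target genes in resting muscle. At an adjusted p under 0.05 limma called none of the 36 members higher and 1 lower. The member called lower was Tap1, a subunit of the peptide transporter of antigen presentation. Among all 19938 genes, limma called 462 higher (2.32%) and 587 lower (2.94%) at an adjusted p under 0.05, 1049 in all (5.26%). With each array centred on its median the counts over all genes were 951 higher and 57 lower. The share of members called, 1 of 36, is near that of all genes. Without any 1 of the Ts65Dn arrays, WT array 2 or WT array 3, no member was called in either direction. In each of these runs 0 or 1 of all genes was called higher and 0 lower. Without WT array 1, 3 members were called lower (Tap1, Oasl1 and Dhx58), and without WT array 4, 2 were called lower (Tap1 and Ifitm1) and Irf2 higher. Over all genes, 1215 were called higher and 1650 lower without WT array 1, and 876 and 1546 without WT array 4.

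At an unadjusted p under 0.05, 4 members were higher and 10 lower, against 12.3% and 22.6% of all genes. All 4 Ts65Dn arrays lay above all 4 WT arrays for Eif2ak2, B2m and Irf3, and below for Tap1, Oasl1, Oas1a, Ifitm1, Stat2 and Bst2. For all genes these shares were 6.81% above and 15.9% below, so that 3 and 6 of 36 members were close to the background. The groups overlapped for the other 27 members. The difference was positive for 16 members and negative for 20, with a median of -0.03 on the log2 scale beside -0.10 over all genes. With level matching the median was 0.18 beside 0.00 over all genes, and 23 of 36 members were positive beside 9989 of 19938 genes. At an unadjusted p under 0.05 on the level-matched values, 6 members were higher (Eif2ak2, Irf3, Trim25, Parp14, Mx2 and Rsad2) and 2 lower (Oasl1 and Ifitm1), against 11.4% and 9.51% of all genes, and 0 passed after adjustment.

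The intervals show which sizes of difference the 4 arrays a group leave. The 95% interval lay below a 2-fold increase for 34 of 36 members, and for Eif2ak2 and Irf2 it held one. For 28 members it lay below 0.58, the log2 ratio of 3 copies to 2. For 33 members it lay within 2-fold in both directions. With level matching, 32 intervals lay below a 2-fold increase and 20 below 0.58. The plot of differences by role shows both sets of intervals.

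**Figure D1:**
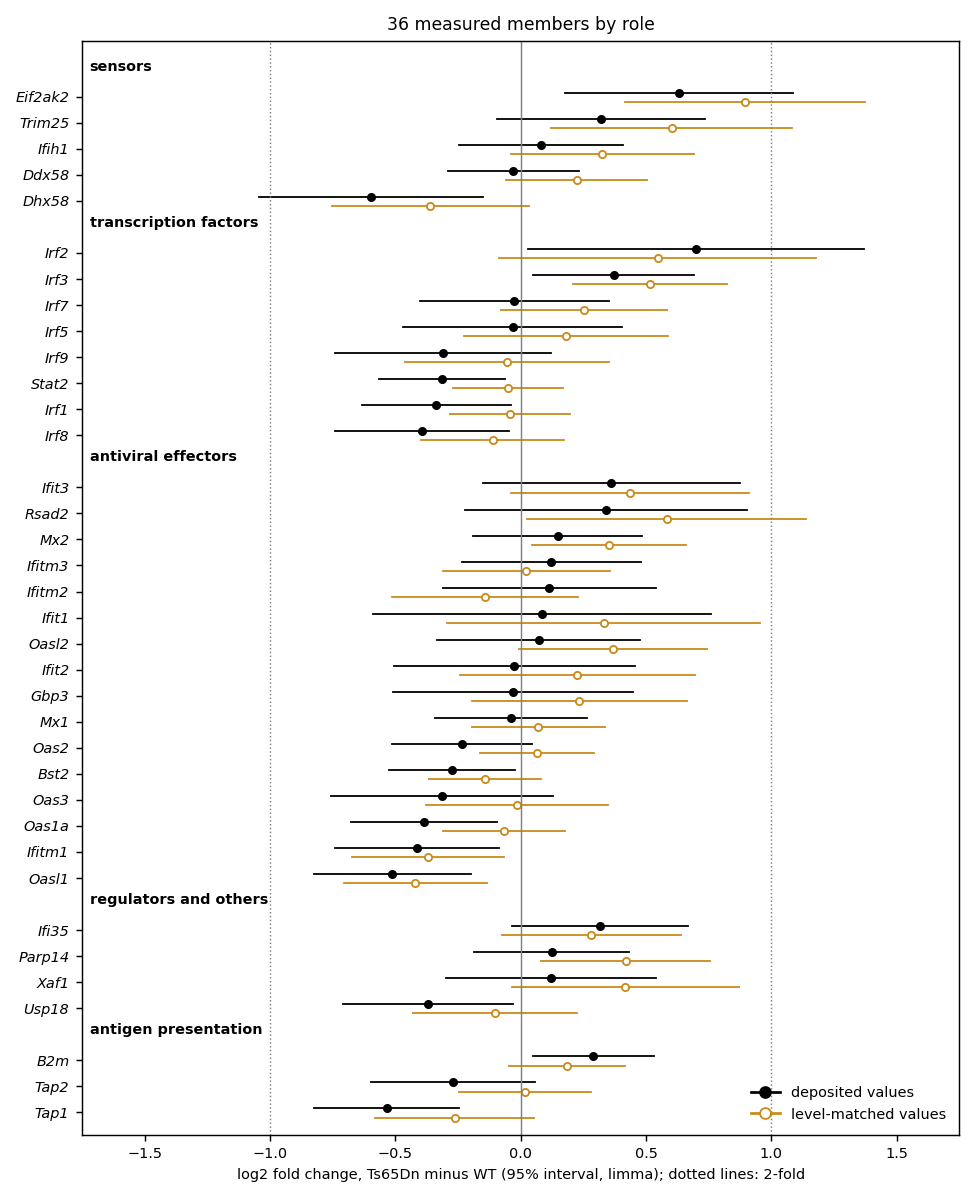
Log2 fold change, Ts65Dn minus WT, of the 36 measured members, grouped by role (n = 4 arrays a group). Filled points are the deposited values and open points the level-matched values, bars are 95% intervals from limma, and dotted lines mark 2-fold; most open points lie to the right of the filled ones, and the filled bars of Eif2ak2 and Irf2 alone reach a 2-fold increase.

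Sensors detect viral RNA inside the cell. Of 5 measured, 0 passed the limma test (1 higher and 1 lower at an unadjusted p under 0.05), and 3 were positive and 2 negative. The median difference was 0.08 on the deposited values and 0.22 to 0.33 under the other scalings. Over all genes the median was -0.10, and -0.04 to 0.10 under the other scalings. Eif2ak2, the kinase PKR that stops translation when it binds double-stranded RNA, was at 4.61, 4.89, 4.50 and 5.53 in Ts65Dn arrays 1 to 4 and 4.15, 4.29, 4.14 and 4.42 in WT arrays 1 to 4. All Ts65Dn arrays lay above all WT arrays, and array 4 was the highest by a wide margin. The difference was 0.63 (95% interval 0.18 to 1.09) with a limma adjusted p of 0.0719, and 0.89 with level matching (limma adjusted p = 0.0755). Without Ts65Dn array 4 it was 0.42, so that this array moved the value by over 1.5 times.

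Dhx58, the helicase LGP2 that tunes the response of the RNA sensors, was at 2.89, 3.10, 3.70 and 2.91 in Ts65Dn arrays 1 to 4 and 3.39, 3.96, 3.97 and 3.67 in WT arrays 1 to 4. Ts65Dn array 3 lay within the WT range and the other 3 below it. The difference was -0.60 with a limma adjusted p of 0.0777, and -0.36 with level matching. Trim25, the ubiquitin ligase that activates RIG-I, was at 5.17, 4.70, 4.87 and 5.55 in Ts65Dn arrays 1 to 4 and 4.73, 4.79, 4.50 and 4.99 in WT arrays 1 to 4. Ts65Dn arrays 1 and 4 were above the WT arrays and arrays 2 and 3 among them. The difference of Trim25 was 0.32 (limma adjusted p = 0.239), 0.60 with level matching and 0.16 without Ts65Dn array 4. The sensors themselves, Ifih1 (MDA5) and Ddx58 (RIG-I), differed by 0.08 (95% interval -0.25 to 0.41) and -0.03 (95% interval -0.29 to 0.23), and for both the groups overlapped. With level matching they differed by 0.33 and 0.22.

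Of 8 measured transcription factors 0 passed the limma test (2 higher and 3 lower at an unadjusted p under 0.05), 2 were positive and 6 negative, with a median difference of -0.17 on the deposited values and of -0.03 to 0.07 under the other scalings. Stat2 carries the activation domain of the complex that binds the ISRE. It was at 4.39, 4.21, 4.33 and 4.34 in Ts65Dn arrays 1 to 4 and 4.52, 4.76, 4.73 and 4.53 in WT arrays 1 to 4. Every Ts65Dn array lay below every WT array, by a small margin. The difference was -0.31 (95% interval -0.57 to -0.06, limma adjusted p = 0.0889), and -0.05 with level matching. Irf9, the DNA-binding partner of Stat2, differed by -0.31 (95% interval -0.74 to 0.12) and by -0.06 with level matching, with overlapping groups.

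Irf3, which is present before infection and starts interferon production when sensors are engaged, was at 5.34, 5.74, 5.59 and 5.35 in Ts65Dn arrays 1 to 4 and 5.03, 4.89, 5.29 and 5.32 in WT arrays 1 to 4. All Ts65Dn arrays were above all WT arrays, but Ts65Dn arrays 1 and 4 exceeded the highest WT array only slightly. The difference was 0.37 (95% interval 0.05 to 0.69, limma adjusted p = 0.105), and 0.52 with level matching (limma adjusted p = 0.0909). Irf7, the interferon-induced factor that amplifies interferon production, differed by -0.03 (95% interval -0.40 to 0.35), and by 0.25 with level matching.

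Irf2, a repressor of many interferon targets that competes with Irf1, was at 6.75, 5.92, 6.69 and 6.34 in Ts65Dn arrays 1 to 4 and 5.69, 5.59, 5.01 and 6.61 in WT arrays 1 to 4. The WT arrays spread widely, with array 4 high and array 3 low, and the groups overlapped. The difference was 0.70 (95% interval 0.03 to 1.37, limma adjusted p = 0.131) and 0.55 with level matching, and its interval was the widest among the 5 factors with an unadjusted p under 0.05. Without WT array 4 it was 0.99 with a limma adjusted p of 0.0413, and without WT arrays 2 and 3 it was 0.28.

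Irf1, an activator induced by interferon gamma, was at 4.56, 4.24, 4.40 and 4.48 in Ts65Dn arrays 1 to 4 and 4.64, 4.85, 4.99 and 4.55 in WT arrays 1 to 4. Ts65Dn array 1 lay within the WT range and the others below it. Its difference was -0.34 (limma adjusted p = 0.110), and -0.04 with level matching. A dimmer probe set of Irf1 differed by -0.43, in the same direction.

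Irf8, a factor of macrophages and dendritic cells, was at 4.50, 4.49, 5.06 and 4.74 in Ts65Dn arrays 1 to 4 and 5.01, 4.99, 5.36 and 5.00 in WT arrays 1 to 4. Ts65Dn array 3 lay among the WT arrays and the other 3 below them. Irf8 differed by -0.39 (limma adjusted p = 0.108), and by -0.11 with level matching. Because the whole muscle was measured, fewer cells of a type and less RNA per cell cannot be told apart. For Irf5, a factor of the same cells, the difference was -0.03 (95% interval -0.47 to 0.40), and 0.18 with level matching.

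**Figure D2:**
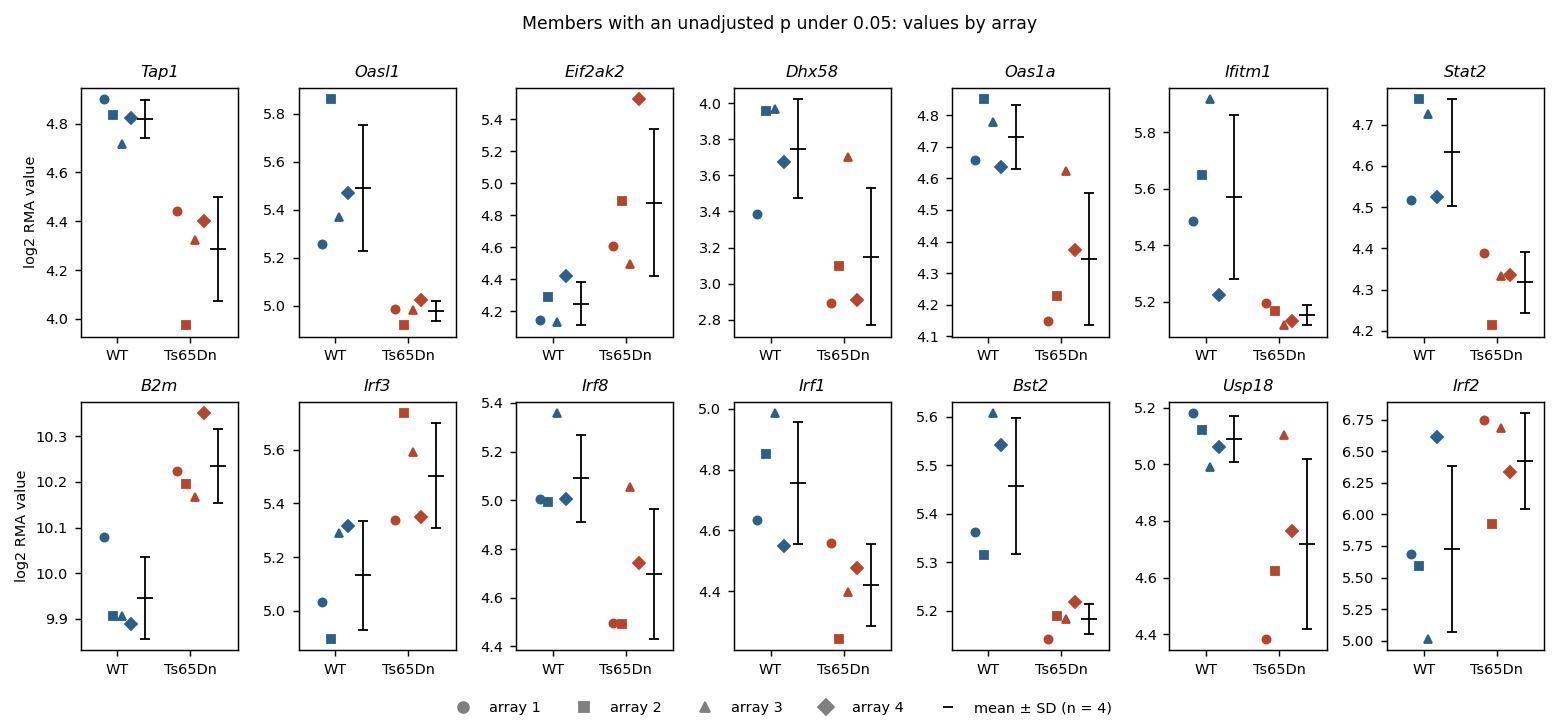
Log2 RMA values by array of the 14 members with an unadjusted p under 0.05, each panel on its own axis. Symbols mark arrays 1 to 4 of WT (blue) and Ts65Dn (red), which are not paired, and bars give the mean ± SD (n = 4); Tap1, Oasl1, Oas1a, Ifitm1, Stat2 and Bst2 are lower and Eif2ak2, B2m and Irf3 higher in every Ts65Dn array, and the other 5 overlap.

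Antiviral effectors act on the virus or on its RNA. Of 16 measured, 0 passed the limma test (0 higher and 4 lower at an unadjusted p under 0.05), 7 were positive and 9 negative, and the median difference was -0.03 on the deposited values and 0.03 to 0.17 under the other scalings. The lowest differences were those of Oasl1, Ifitm1 and Oas1a. Oasl1, an oligoadenylate synthetase-like protein that limits translation of Irf7, was at 4.99, 4.92, 4.98 and 5.02 in Ts65Dn arrays 1 to 4 and 5.26, 5.86, 5.37 and 5.47 in WT arrays 1 to 4. The Ts65Dn arrays lay close together and below all WT arrays, of which array 2 was the highest. The difference was -0.51 (95% interval -0.82 to -0.20, limma adjusted p = 0.0547), and -0.42 with level matching. Without WT array 1 it was -0.59 with a limma adjusted p of 0.0373.

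Oas1a, an oligoadenylate synthetase of the pathway that activates RNase L, was at 4.15, 4.23, 4.62 and 4.37 in Ts65Dn arrays 1 to 4 and 4.66, 4.85, 4.78 and 4.64 in WT arrays 1 to 4. All Ts65Dn arrays lay below all WT arrays, with array 3 just below the lowest WT array. The difference was -0.39 (limma adjusted p = 0.0792), and -0.07 with level matching. The other synthetases differed by -0.23 (Oas2) and -0.31 (Oas3), and Oasl2, a further synthetase-like gene, by 0.07. Their level-matched differences were 0.07 for Oas2, -0.01 for Oas3 and 0.37 for Oasl2. These genes are similar in sequence, so that probes can share signal between them, which was not tested.

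Ifitm1, a membrane protein that blocks viral fusion, was at 5.20, 5.17, 5.12 and 5.13 in Ts65Dn arrays 1 to 4 and 5.49, 5.65, 5.92 and 5.22 in WT arrays 1 to 4. The Ts65Dn arrays were nearly equal, and WT array 4 was close to them. The difference was -0.42 (95% interval -0.74 to -0.09, limma adjusted p = 0.0858), with level matching it was -0.37, and without WT arrays 2 and 3 it was -0.20. A dimmer probe set of Ifitm1 differed by -0.20. The related Ifitm2 and Ifitm3, also fusion blockers, differed by 0.11 and 0.12, each with overlapping groups. The other probe sets of Ifitm2 both differed by 0.27, and on level matching Ifitm2 turned to -0.14 and Ifitm3 was at 0.02.

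Bst2 (tetherin), which holds budding virus at the cell surface, was at 5.14, 5.19, 5.18 and 5.22 in Ts65Dn arrays 1 to 4 and 5.36, 5.31, 5.61 and 5.54 in WT arrays 1 to 4. Every Ts65Dn array lay below every WT array. The difference was -0.27 (95% interval -0.52 to -0.02, limma adjusted p = 0.118), and -0.14 with level matching.

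The Ifit genes and Rsad2 (viperin, which makes a nucleotide that ends viral RNA chains) are among the most inducible interferon targets. Ifit3 was at 5.48, 5.37, 5.22 and 6.37 in Ts65Dn arrays 1 to 4 and 5.33, 4.95, 5.32 and 5.39 in WT arrays 1 to 4. Ts65Dn array 4 stood above the others, and the other 3 Ts65Dn arrays lay near the WT arrays. The difference was 0.36 (95% interval -0.15 to 0.87, limma adjusted p = 0.276), with level matching it was 0.44, and without Ts65Dn array 4 it was 0.11. Rsad2 was at 4.90, 5.06, 4.58 and 5.61 in Ts65Dn arrays 1 to 4 and 4.40, 5.36, 4.50 and 4.52 in WT arrays 1 to 4. Ts65Dn array 4 and WT array 2 were the highest, and the groups overlapped. The difference was 0.34 (95% interval -0.22 to 0.90, limma adjusted p = 0.345), with level matching it was 0.58, and without Ts65Dn array 4 it was 0.15. Ifit1 and Ifit2, which bind viral RNA, differed by 0.09 (95% interval -0.59 to 0.76) and -0.03 (95% interval -0.50 to 0.45), and by 0.33 and 0.23 with level matching. Ifit1 was highest in WT array 3, at 4.48, and from 2.85 to 3.72 in the other 7 arrays. Gbp3, a guanylate-binding GTPase, differed by -0.03 (95% interval -0.51 to 0.45), and by 0.23 with level matching.

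Mx1 and Mx2, GTPases that trap viral nucleocapsids, are the members present in 3 copies in Ts65Dn. Many laboratory strains carry a disabled Mx1 allele. Mx1 was at 2.67, 2.33, 2.29 and 2.53 in Ts65Dn arrays 1 to 4 and 2.51, 2.61, 2.63 and 2.24 in WT arrays 1 to 4. The groups overlapped fully, with Ts65Dn array 1 the highest and WT array 4 the lowest. The difference was -0.04 (95% interval -0.34 to 0.26, limma adjusted p = 0.853), and its sign turned with the scaling, to 0.07 with level matching. Mx2 was at 3.60, 3.11, 3.04 and 3.26 in Ts65Dn arrays 1 to 4 and 2.92, 3.34, 3.14 and 3.03 in WT arrays 1 to 4. Ts65Dn array 1 was the highest and WT array 1 the lowest, and the rest were mixed. The difference was 0.15 (95% interval -0.19 to 0.48, limma adjusted p = 0.496), and 0.35 with level matching. Both probe sets were dim. On the deposited values the upper bounds of both intervals lay below 0.58, the log2 ratio of 3 copies to 2. The level-matched interval of Mx2 ran from 0.05 to 0.66 and held that ratio, and that of Mx1 ran from -0.20 to 0.34.

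The receptor chains in 3 copies are given beside them. Ifnar2, a chain of the type I interferon receptor, was at 6.74, 6.52, 6.26 and 6.56 in Ts65Dn arrays 1 to 4 and 5.60, 5.66, 5.36 and 5.29 in WT arrays 1 to 4. All Ts65Dn arrays were above all WT arrays with a clear gap. Ifnar2 rose by 1.04 on the log2 scale (95% interval 0.73 to 1.35, limma adjusted p = 0.0449), and by 0.88 with level matching (limma adjusted p = 0.0445). The call was lost when any Ts65Dn array, WT array 2 or WT array 3 was left out, with limma adjusted p from 0.0225 to 0.109 over the 8 arrays. In each run that lost it, only 0 or 1 of all genes was called.

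Ifnar1, the other chain, was at 6.20, 5.60, 5.79 and 6.08 in Ts65Dn arrays 1 to 4 and 5.98, 5.46, 4.50 and 4.75 in WT arrays 1 to 4. WT array 1 lay among the Ts65Dn arrays, WT array 2 just below them and WT arrays 3 and 4 far below. Ifnar1 differed by 0.75 (95% interval 0.10 to 1.39, limma adjusted p = 0.105), and by 0.77 with level matching. Ifngr2, a chain of the interferon gamma receptor, was at 8.64, 8.38, 8.73 and 9.08 in Ts65Dn arrays 1 to 4 and 8.20, 8.24, 7.90 and 8.52 in WT arrays 1 to 4, and the groups overlapped at Ts65Dn array 2 and WT array 4. Its difference was 0.49 (limma adjusted p = 0.0858), and 0.26 with level matching. Il10rb, a chain shared by the receptors of interferon lambda and interleukin 10, was at 5.25, 5.48, 5.24 and 5.68 in Ts65Dn arrays 1 to 4 and 5.05, 5.36, 4.52 and 4.88 in WT arrays 1 to 4. WT array 2 lay among the Ts65Dn arrays and the other WT arrays below them. Il10rb differed by 0.46 (limma adjusted p = 0.106), and by 0.66 with level matching. Whether the receptor chains and the targets differed from each other in their change was not tested.

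**Figure D3:**
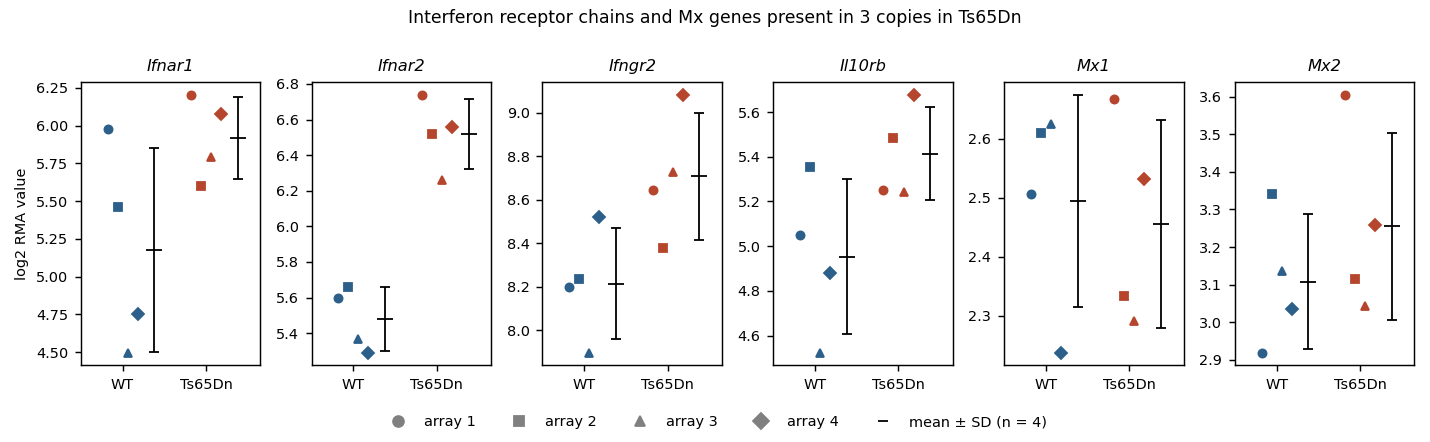
Log2 RMA values by array of the interferon receptor chains and Mx genes present in 3 copies in Ts65Dn, each panel on its own axis. Symbols mark arrays 1 to 4 of WT (blue) and Ts65Dn (red), and bars give the mean ± SD (n = 4); only Ifnar2 has all Ts65Dn arrays above all WT arrays, and Mx1 and Mx2 overlap.

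Of the 4 regulators and other targets measured, 0 passed the limma test (0 higher and 1 lower at an unadjusted p under 0.05), and 3 were positive under the deposited values and under each of the other scalings. Usp18, the protease that removes Isg15 from proteins and dampens signalling at Ifnar2, was at 4.38, 4.62, 5.10 and 4.76 in Ts65Dn arrays 1 to 4 and 5.18, 5.12, 4.99 and 5.06 in WT arrays 1 to 4. Ts65Dn array 3 lay within the WT range and the other 3 below it. The difference was -0.37 (95% interval -0.71 to -0.03, limma adjusted p = 0.119), and -0.10 with level matching. Ifi35, a regulator of innate signalling, differed by 0.32 (limma adjusted p = 0.180) and by 0.28 with level matching, with Ts65Dn arrays 1, 2 and 4 nearly equal and array 3 lower, at 5.53. Parp14, an ADP-ribosyltransferase, differed by 0.12 (95% interval -0.18 to 0.43), and by 0.42 with level matching. Xaf1, a partner of the inhibitor of apoptosis Xiap, differed by 0.12 (95% interval -0.30 to 0.54), and by 0.42 with level matching.

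Antigen presentation was represented by B2m, Tap1 and Tap2, of which limma called 1 lower and 0 higher. Tap1, which with Tap2 pumps peptides into the endoplasmic reticulum for loading on class I molecules, was at 4.44, 3.97, 4.32 and 4.40 in Ts65Dn arrays 1 to 4 and 4.90, 4.84, 4.72 and 4.82 in WT arrays 1 to 4. Every Ts65Dn array was lower than every WT array, and Ts65Dn array 2 was the lowest. The mean was 4.28 ± 0.21 in Ts65Dn and 4.82 ± 0.08 in WT (SD, n = 4). Tap1 fell by 0.53 on the log2 scale (95% interval -0.82 to -0.24, limma adjusted p = 0.0475). With level matching the difference was -0.26 with a limma adjusted p of 0.315, and without WT arrays 2 and 3 it was -0.58 with a limma adjusted p of 0.199. The call was lost when any Ts65Dn array, WT array 2 or WT array 3 was left out, with limma adjusted p from 0.0477 to 0.115 over the 8 arrays. In each run that lost it, only 0 or 1 of all genes was called.

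Tap2, its partner, was at 4.62, 4.74, 4.90 and 4.89 in Ts65Dn arrays 1 to 4 and 5.13, 5.23, 5.20 and 4.68 in WT arrays 1 to 4. WT array 4 lay among the Ts65Dn arrays and the other WT arrays above them. The difference was -0.27 (95% interval -0.60 to 0.06, limma adjusted p = 0.208), and 0.02 with level matching. B2m, the invariant light chain of class I molecules, was at 10.22, 10.20, 10.17 and 10.35 in Ts65Dn arrays 1 to 4 and 10.08, 9.91, 9.91 and 9.89 in WT arrays 1 to 4. All Ts65Dn arrays lay above all WT arrays, and the spread within each group was small. The difference was 0.29 (95% interval 0.05 to 0.53, limma adjusted p = 0.0968), and 0.19 with level matching. B2m and Tap1 thus had non-overlapping groups in opposite directions, beside 6.81% of all genes above and 15.9% below. B2m lay above the median brightness, where all genes had a median difference of 0.11. Tap1 lay at or below it, where that median was -0.21. With each array centred on its median B2m was called higher, by 0.49 (limma adjusted p = 0.0442), and Tap1 was not called.

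Across arrays the members did not move as 1 block. Ts65Dn array 4 held the highest value of 8 of the 36 members (22.2%, against 10.7% of all genes). These were Ifit3, Rsad2, Ddx58, B2m, Ifitm3, Eif2ak2, Trim25 and Xaf1. WT array 2 held the highest value of 8 members (22.2%, 19.0% of all genes) and WT array 3 of 9 (9 of 36, and 30.6% of all genes). With level matching, Ts65Dn arrays 1 and 4 each held the highest value of 9 of the 36 members, against 13.1% and 12.4% of all genes, and Ts65Dn array 3 of 7 (19.4%), against 8.11%. The 4 WT arrays then each held the highest value of 2 or 3 members, against 7.22%, 15.5%, 21.9% and 9.33% of all genes in WT arrays 1 to 4. In Ts65Dn array 4, 4 of 11 macrophage markers and 8 of 37 other interferon-stimulated genes were also at their highest. WT array 3 likewise held the highest value of 4 of the 11 macrophage markers, and WT array 2 that of 10 of the 37 other interferon-stimulated genes. The part of macrophages in the members' values by array was not tested.

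**Figure D4:**
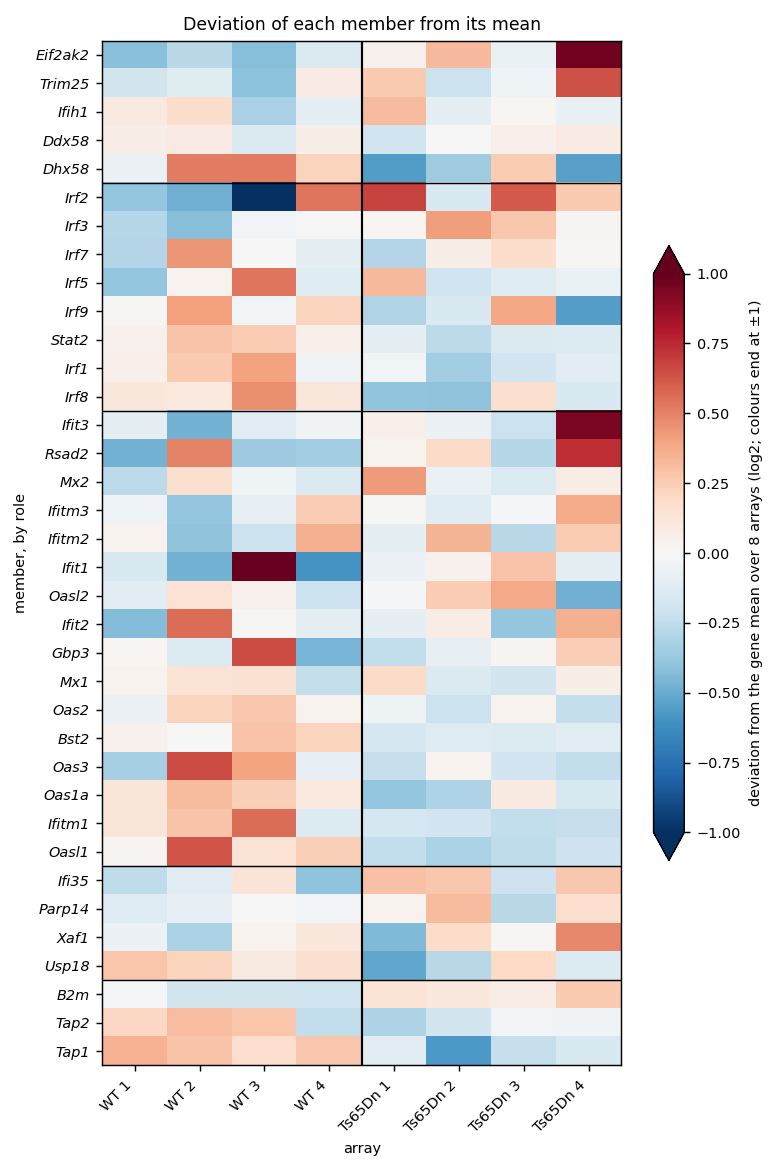
Deviation of each measured member from its mean over the 8 arrays (log2, colours end at 1 in each direction), with members in rows ordered by role and arrays in columns. Ts65Dn array 4 is high for Eif2ak2, Trim25, Ifit3 and Rsad2 and low for Dhx58, Irf9 and Oasl2, and WT array 3 is low for Irf2 and high for Ifit1.

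Further pathway genes outside the members were 95 measured genes in 6 lists of 116, of which limma called 1 higher (Ifnar2) and 5 lower. Of 12 receptor and Jak-Stat genes 1 was called higher and 0 lower, with a median difference of 0.45 and of 0.15 with level matching. Jak1, the kinase bound to both interferon receptors, was at 9.33, 9.40, 9.20 and 9.28 in Ts65Dn arrays 1 to 4 and 8.84, 8.82, 8.03 and 8.86 in WT arrays 1 to 4. All Ts65Dn arrays were above all WT arrays, of which array 3 was the lowest. Jak1 differed by 0.66 (limma adjusted p = 0.0564), and by 0.44 with level matching. Ifnlr1, the specific chain of the interferon lambda receptor, differed by -0.47 (limma adjusted p = 0.0522), and Socs3, a feedback inhibitor, by -0.40 (limma adjusted p = 0.0671). With level matching they differed by -0.17 and -0.27.

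Of 16 measured interferon ligand genes, Ifna5 fell by 0.63 (limma adjusted p = 0.0456) and Ifna16 by 0.78 (limma adjusted p = 0.0466) on the log2 scale. All 16 differences were negative on the deposited values, and 5 to 8 were positive under the other scalings, with negative medians throughout. Ifnb1, the first type I interferon made on infection, differed by -0.38 (limma adjusted p = 0.113), and Ifng by -0.40 (limma adjusted p = 0.0787). The level-matched differences were -0.72 for Ifna5, -0.52 for Ifna16, -0.14 for Ifnb1 and -0.11 for Ifng. The probe sets of the ligands were mostly dim (12 of 16 at or below the median brightness), and the Ifna genes are near-identical copies whose probes can share signal.

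Among 37 other interferon-stimulated genes, 0 were called higher and 1 lower. At an unadjusted p under 0.05, 7 were higher and 4 lower, against 12.3% and 22.6% of all genes. On the deposited values 17 of 37 differences were positive, beside 7825 of 19938 genes. With level matching 27 of 37 were positive, beside 9989 of 19938 genes. The median difference was -0.02 on the deposited values and 0.08 to 0.18 under the other scalings. The gene that fell was Helz2, a helicase and nuclear receptor coactivator, by 0.60 (limma adjusted p = 0.0456), and with level matching its difference was -0.32. Parp9, a partner of the ubiquitin ligase Dtx3l, differed by 0.56 (limma adjusted p = 0.0569), with all Ts65Dn arrays above all WT arrays. Irgm1, a GTPase of autophagy, differed by 0.63 (limma adjusted p = 0.0659), and Ifi203, a nucleic acid sensor of the interferon-inducible family, by 1.12 (limma adjusted p = 0.0726). With level matching Parp9 differed by 0.82, Irgm1 by 0.50 and Ifi203 by 1.20.

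Of 14 antigen processing genes, 0 were called higher and 1 lower. The median difference was -0.12 on the deposited values and -0.23 to 0.08 under the other scalings. Nlrc5, the transactivator of class I genes, was at 7.67, 7.58, 7.92 and 7.47 in Ts65Dn arrays 1 to 4 and 7.99, 8.62, 8.54 and 8.20 in WT arrays 1 to 4. All Ts65Dn arrays lay below all WT arrays. Nlrc5 fell by 0.68 (95% interval -1.05 to -0.32, limma adjusted p = 0.0475), and the level-matched difference was -0.92 (limma adjusted p = 0.0628). The immunoproteasome subunits Psmb8, Psmb9 and Psmb10 differed by -0.21, -0.04 and -0.03, and by -0.27, -0.36 and -0.23 with level matching. Erap1, the peptidase that trims class I peptides, differed by 0.63 (limma adjusted p = 0.0826), and Calr, a chaperone of peptide loading, by 0.52 (limma adjusted p = 0.0871). With level matching they differed by 0.91 and 0.27. The class I heavy chains H2-K1 and H2-D1 were not analysed here.

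Of 6 class II genes 0 passed the limma test (2 higher and 1 lower at an unadjusted p under 0.05), and H2-Aa and Cd74 (the invariant chain) differed by 0.63 (limma adjusted p = 0.0529) and 0.55 (limma adjusted p = 0.0685). Their transactivator Ciita differed by -0.39 (limma adjusted p = 0.0795). With level matching the differences were 0.47 for H2-Aa, 0.74 for Cd74 and -0.07 for Ciita. Of 10 nucleic acid sensing genes, 0 were called higher and 1 lower, the DNA receptor Tlr9. Tlr9 fell by 0.62 (limma adjusted p = 0.0456), with a level-matched difference of -0.35. Each of the 6 called pathway genes lost its call without any 1 of the Ts65Dn arrays, WT array 2 or WT array 3. In each of these runs only 0 or 1 of all genes was called.

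Immune cells carry much of this programme, so their markers are given beside it. Of 11 macrophage markers 1 passed the test. Cd68, a lysosomal protein of macrophages, was at 7.00, 6.33, 8.27 and 9.31 in Ts65Dn arrays 1 to 4 and 5.37, 5.88, 4.34 and 5.77 in WT arrays 1 to 4. Cd68 rose by 2.39 on the log2 scale (limma adjusted p = 0.0475), and the other 10 did not pass. With level matching the difference of Cd68 was 2.10 (limma adjusted p = 0.0909). The difference was positive for 7 of the 11 macrophage markers on the deposited values and for all 11 with level matching. On the level-matched values Cd163, Mrc1 and Csf1r also had a limma unadjusted p under 0.05, against 11.4% of all genes higher. They differed by 0.55, 0.53 and 0.30, with limma adjusted p of 0.14, 0.164 and 0.197. The mean of the 11 markers was 4.99 to 5.46 in Ts65Dn arrays and 4.77 to 4.95 in WT arrays, and without Cd68 4.81 to 5.08 and 4.71 to 4.99. Markers of T cells, dendritic cells, NK cells and neutrophils held 0 genes called by limma of 20. At an unadjusted p under 0.05, 3 T cell, 2 dendritic cell, 1 NK cell and 1 neutrophil marker were lower, against 22.6% of all genes. With level matching none of these markers had an unadjusted p under 0.05. Of 3 B cell markers Cd79b fell by 0.55 (limma adjusted p = 0.0475). The level-matched difference of Cd79b was -0.24 (limma adjusted p = 0.275). Of 3 markers of all leukocytes 0 passed the limma test, with 1 higher at an unadjusted p under 0.05. It was Ptprc (CD45), a phosphatase on the surface of leukocytes, which differed by 0.35 (limma adjusted p = 0.122) and by 0.63 with level matching (limma adjusted p = 0.0539). The 5 endothelial markers had a mean of 5.99 to 6.26 in Ts65Dn arrays and 5.26 to 5.77 in WT arrays. Kdr, a receptor of vascular growth factor, rose by 0.99 (limma adjusted p = 0.0449), and by 1.27 with level matching (limma adjusted p = 0.016). The calls of Cd68, Cd79b and Kdr were each lost without any 1 of the Ts65Dn arrays, WT array 2 or WT array 3, with limma adjusted p of up to 0.115, 0.118 and 0.109. In each of these runs only 0 or 1 of all genes was called. The part of these cells in the members' values was not tested.

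Members with and without the ISRE core printed above were set side by side as a description. The 15 measured members with a match had a median difference of 0.09 on the log2 scale, and 0.22 with level matching. The 14 measured members with a window and no match had -0.03, and 0.20 with level matching. Of those with a match, 9 of 15 were positive, and of those without, 5 of 14. With level matching 10 of 15 and 8 of 14 were positive. The printed genes ran from Oas1a, Stat2 and Bst2, below WT in every Ts65Dn array, to B2m and Eif2ak2, above WT in every Ts65Dn array. On the deposited values, members that hold the same core therefore stood on both sides of WT. Of all genes, 6.81% lay above and 15.9% below in every Ts65Dn array. With level matching the differences were -0.07 for Oas1a, -0.05 for Stat2, -0.14 for Bst2, 0.19 for B2m and 0.89 for Eif2ak2. None of them was called on the deposited or the level-matched values.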

How the data were processed

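Gene expression was measured in soleus muscle of 4 Ts65Dn and 4 wild-type mice, 1 array each. The authors summarised probe sets by RMA in Affymetrix Expression Console 1.1, per the submitters' processing notes. The deposited values were read as log2 from their range. The genome build is not given in the sources used here, and scanner files were not used here. Of 35556 probe sets, 21789 had 1 gene symbol, 1621 several and 12146 none. Symbols were updated to RefSeq (GRCm38.p6) by Entrez identifier for 21698 probe sets, and 91 kept the array's symbol. The brightest probe set was used for the 999 genes with several, which left 19938 genes.

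Groups were compared with limma 3.58.1 (lmFit and eBayes, two-sided, no covariate) in R 4.3.3. The p-values were adjusted by Benjamini-Hochberg over the 19938 genes and the threshold was 0.05. The fit was tested on simulated data without the difference in array median and range between the groups, so its effect on the calls was not covered. The members, gene lists and alternatives were chosen with earlier results of these data known. All members are named, and 8 array values are given for members with an unadjusted p under 0.05, with non-overlapping groups or in 3 copies, and also for Trim25, Ifit3, Rsad2 and Tap2, and for Ifnar1, Ifnar2, Ifngr2, Il10rb, Jak1, Nlrc5 and Cd68, some of which were picked after their values were seen. Of the other lists, called genes and otherwise up to 4 genes with the smallest p are named, and Ifnb1, Ifng, Psmb8, Psmb9, Psmb10, Ciita, Irgm1 and Ifi203 were also picked that way where they fall outside this. The alternatives were quantile normalization once more, centring on the array median, cyclic loess, level matching, filters on dim genes, the mean of probe sets, a replicate block, weights per array, robust estimation with an intensity trend, a threshold of 0.1 and leaving arrays out, and adjusting all probe sets together was added after seeing the data. No array-level batch is named in the labels.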

Additional observations from a re-analysis of the deposited data

Results flagged for a closer look

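Of 86 groups of 4 arrays examined, over the members and the related genes shown by array, 7 held an array far from the other 3 by Dixon's criterion, where chance gives about 1 in 20. WT array 2 was the lowest for Ifit3, at 4.95, with the next at 5.32, and the highest for Rsad2, at 5.36, with the next at 4.52. WT array 3 was the highest for Irf8, at 5.36, with the next at 5.01, and the lowest for Ddx58, at 4.33, with the next at 4.54. WT array 1 was the highest for B2m, at 10.08, with the next at 9.91. Ts65Dn array 3 was the lowest for Ifi35, at 5.53, with the others nearly equal to each other. WT array 3 was the lowest for Jak1, at 8.03, with the next at 8.82. Of these 7 values, 6 were in WT arrays.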

How the results depend on the processing

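Over 21 alternatives, the 14 members with an unadjusted p under 0.05 kept their sign. Of the 22 whose interval held 0, 15 changed sign in at least 1. Several alternatives could not change a sign, because they leave the difference of a gene as it is. These were the threshold of 0.1, all probe sets adjusted together, the replicate block, the filters on dim genes, and robust estimation with an intensity trend. The mean of probe sets could move only members with several. Members called higher, 0 in the fit reported, were 1 with centring and 2 at a threshold of 0.1, and 0 to 1 with each array left out. Members called lower, 1 in the fit reported, were 0 with quantile normalization, centring, cyclic loess, level matching, the replicate block and array weights. They were also 0 with WT arrays 2 and 3 left out and with all probe sets adjusted together. They were 6 at a threshold of 0.1 and 0 to 3 with each array left out. Among genes above the median brightness they were 0, but Tap1 is not one of those genes. Above the 25th percentile of brightness Tap1 was still called (limma adjusted p = 0.0455).

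All genes called higher and lower, 462 and 587, were 1 and 0 with quantile normalization, 951 and 57 with centring, 117 and 18 with cyclic loess, and 74 and 16 with level matching. They were 294 and 142 above the median brightness, 159 and 77 with array weights, and 1754 and 3207 at a threshold of 0.1. They were 0 and 0 with the replicate block and with all probe sets adjusted together, and 1 and 0 without WT arrays 2 and 3. At an unadjusted p under 0.05 the replicate block gave 7014 genes. With each array left out, all genes called higher and lower ran from 0 to 1215 and from 0 to 1650. They were 0 or 1 and 0 without any 1 of the Ts65Dn arrays, WT array 2 or WT array 3.

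Pathway genes called higher, 1, were 0 with quantile normalization, the block, WT arrays 2 and 3 left out and all probe sets, 5 with centring, 2 above the 25th percentile, 11 at a threshold of 0.1 and 0 to 6 with each array left out. Pathway genes called lower, 5, were 0 with quantile normalization, centring, cyclic loess, level matching, the block, array weights, WT arrays 2 and 3 left out and all probe sets. They were 12 at a threshold of 0.1 and 0 to 10 with each array left out. Above the median brightness they were 1, and Helz2, Ifna16 and Tlr9 are not among the genes there.

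The median over the members, -0.03, was 0.11 with quantile normalization, 0.18 with centring, 0.16 with cyclic loess and 0.18 with level matching. The median over all genes, -0.10, was -0.04, 0.10, 0.01 and 0.00 in these settings. Above the median brightness the median was 0.11 over the 17 members there and 0.11 over all genes there. The cause of these shifts was not tested. After the group mean of each gene was subtracted, the deviations of same-numbered arrays correlated at 0.0299, 0.0117, 0.0913 and 0.0701. The numbers were therefore not taken to pair the mice, and 2 of 4 correlated best with their own number. Under the replicate block 0 of the 36 members were called. The 4 arrays a group and the dimness of 19 members limit what can be seen.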
